A study of Mus musculus with 23 samples.

Results

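The genes examined here encode the signaling machinery of the pre-T-cell receptor. They are Ptcra, which encodes pre-TCR alpha, and Cd3d, Cd3e, Cd3g and Cd247, which encode the CD3 delta, epsilon, gamma and zeta chains. These 5 genes were chosen by name from the 24475 genes of the table, and all 5 had values in every sample and passed the filter on low values that left 11919 genes across the 3 groups. Their RNA levels were compared in 23 mouse samples.

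The controls were 6 thymus samples of normal C57BL/6 mice, whose age the sources used here do not give. The 17 tumors were T-cell acute lymphoblastic leukemias (T-ALL) taken from spleens of BALB/c hosts that lacked Rag2 and Il2rg (Rag2-/-Il2rg-/-) and were 6 to 8 weeks old when they received a lobe of a 1-day-old donor thymus under the kidney capsule. The donor thymus was wild type in 14 cases (WT T-ALL, donors B6.Ly5.1 carrying CD45.1) and Notch3 knockout in 3 (Notch3 KO T-ALL, with beta-galactosidase inserted in frame at the first coding exon of the gene). The labels name no treatment of any group. Hosts of this genotype make no T, B or NK cells of their own but keep erythroid, myeloid and stromal cells, and the labels name no sort of the spleen cells. Tissue and strain therefore part with the comparison of tumor and thymus, and their contributions cannot be told apart from that of leukemia. Each host received 1 lobe, so each tumor has its own graft and counts as 1 case, and samples are named by the number in their label.

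Pre-TCR alpha is an invariant chain that immature thymocytes use in place of the TCR alpha chain. It pairs with a newly rearranged TCR beta chain, and the pair reaches the membrane only together with the CD3 chains. The CD3 gamma, delta and epsilon chains form heterodimers, and the zeta chain joins as a homodimer that carries most of the tyrosine motifs of the complex. Signaling through this complex drives thymocytes past the beta-selection checkpoint, after which Ptcra is normally shut off and the CD3 genes stay on for the life of the T cell. Ptcra is a known target of Notch signaling and of the E proteins, and pre-TCR signaling contributes to several mouse models of T-ALL.

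Values are log2(scaled RPKM + 1) as deposited, where RPKM (reads per kilobase of transcript, relative to the size of the library) is scaled to 10 at the 75th percentile of each sample. The offset of 1 is part of these values, so a difference of log2 values understates the fold change of genes with low levels. The authors give an approximate number of reads per sample, but without read counts the exact depth behind a given sample cannot be told. All 7 T cell markers were expressed in every group, and their scaled RPKM summed to between 2750 and 3390 (thymus), between 988 and 2750 (WT T-ALL) and between 1720 and 2300 (Notch3 KO T-ALL). The 4 erythroid markers listed, Alas2, Slc4a1 and Klf1 among them, summed to between 0.174 and 2.34 in thymus, against 23.4 to 600.0 among WT T-ALL and 318 to 1700 among Notch3 KO T-ALL. The sum of 8 macrophage markers ran from 9.52 to 62.9, from 23.1 to 390.0 and from 275 to 401 in the same order of groups, and that of 8 neutrophil markers from 57.1 to 531, from 637 to 84700 and from 202 to 7580. In bulk RNA of this kind, fewer T-lineage cells and less RNA per cell cannot be told apart. Notch3 itself stood at 3.22, 2.59 and 3.74 in Notch3 KO T-ALL 1, 2 and 3, between 2.62 and 4.29 in thymus and between 3.17 and 5.78 in WT T-ALL. A value for the whole gene does not check an insertion in its first coding exon, since reads from the other exons are counted too.

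The 5 genes lie at 3 places in the genome (positions from GENCODE M21 on GRCm38, the mm10 assembly). Cd3g (chr9:44969572-44980431, - strand), Cd3d (chr9:44981786-44987339, + strand) and Cd3e (chr9:44998740-45009627, - strand) lie within 40.1 kb of chromosome 9. Cd3g and Cd3d are transcribed away from each other from starts 1355 bases apart. Ptcra (chr17:46755663-46763712, - strand) and Cd247 (chr1:165788681-165877277, + strand) lie apart from this cluster. Cd247, Cd3e and Ptcra each overlap annotated genes on the opposite strand, such as Pou2f1 at Cd247, and whether the authors counted reads by strand is not given in the sources used here.

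The sequences 250 bases upstream of the RefSeq start of 4 of the genes are shown because 2 of these genes, Ptcra and Cd247, carried the main patterns described below, and Cd3g and Cd3d, which are transcribed in opposite directions, had correlated levels across WT T-ALL. They are from RefSeq on GRCm38.p6, are written 5′ to 3′ on the strand of the gene, and all 5 genes had a match in that table. Capitals mark the E-box CANNTG, the word bound by E proteins such as those of Tcf3 and Tcf12, and TGGGAA, the core word of Rbpj, which carries Notch to DNA. Both strands were searched.
Ptcra (chr17:46763713-46763962, - strand): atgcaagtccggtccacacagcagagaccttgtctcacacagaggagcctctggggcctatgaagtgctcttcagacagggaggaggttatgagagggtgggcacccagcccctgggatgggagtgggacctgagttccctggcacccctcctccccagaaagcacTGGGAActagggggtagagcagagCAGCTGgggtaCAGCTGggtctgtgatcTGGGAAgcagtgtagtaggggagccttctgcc
Cd3g (chr9:44980432-44980681, - strand): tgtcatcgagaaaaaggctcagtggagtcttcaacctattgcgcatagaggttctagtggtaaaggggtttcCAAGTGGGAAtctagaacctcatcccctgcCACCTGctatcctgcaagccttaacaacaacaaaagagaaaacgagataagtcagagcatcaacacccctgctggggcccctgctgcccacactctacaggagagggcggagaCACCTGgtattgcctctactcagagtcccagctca
Cd3d (chr9:44981536-44981785, + strand): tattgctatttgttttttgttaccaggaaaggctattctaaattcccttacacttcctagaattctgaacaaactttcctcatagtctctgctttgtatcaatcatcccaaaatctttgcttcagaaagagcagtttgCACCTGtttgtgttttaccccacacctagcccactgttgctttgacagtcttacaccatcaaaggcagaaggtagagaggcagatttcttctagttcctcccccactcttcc
Cd247 (chr1:165788431-165788680, + strand): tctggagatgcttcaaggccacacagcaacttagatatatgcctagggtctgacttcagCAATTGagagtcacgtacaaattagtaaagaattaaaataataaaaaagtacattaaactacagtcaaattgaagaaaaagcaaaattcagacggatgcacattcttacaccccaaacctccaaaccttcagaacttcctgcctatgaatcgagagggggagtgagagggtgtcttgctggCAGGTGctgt

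Ptcra held 2 E-boxes, which started 60 and 49 bases before the gene's start, and 2 Rbpj words, at 84 and 32 bases. Cd3g held 3 E-boxes, of which the one at 178 bases overlapped its single Rbpj word at 174. Cd3d held 1 E-box and no Rbpj word, Cd3e 1 of each, and Cd247 2 E-boxes and no Rbpj word. Of 32841 RefSeq promoter windows of the same length, 66.2% held at least 1 E-box and 21.6% at least 1 Rbpj word, so at least 1 match to either is common. Windows with 3 or more E-boxes, as at Cd3g, made up 12.2%. A match is a description of the letters and not of binding.

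Between tumors and thymus, Cd247 was the 1 gene of the 5 whose change passed the test in both tumor groups. It was 2.89-fold lower in WT T-ALL and 2.74-fold lower in Notch3 KO T-ALL. The mean levels of Cd3d, Cd3e and Cd3g lay within 0.26 of thymus on the log2 scale in WT T-ALL, with no call, although other scalings gave calls in either direction, as given below. Ptcra did not differ in mean by the test but ranged 57.5-fold among the 14 WT T-ALL, or 9.57-fold without WT T-ALL 120, against 1.43-fold among the 6 thymus samples. Of all genes tested, 51.6% were called in WT T-ALL against thymus (22.3% lower) and 37.5% in Notch3 KO T-ALL against thymus (16.3% lower), so 1 called gene of 5 is no excess over the background in either comparison. Calls are by limma with a Benjamini-Hochberg adjusted p under 0.05. The comparisons with thymus share the same 6 control samples.

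**Figure D1:**
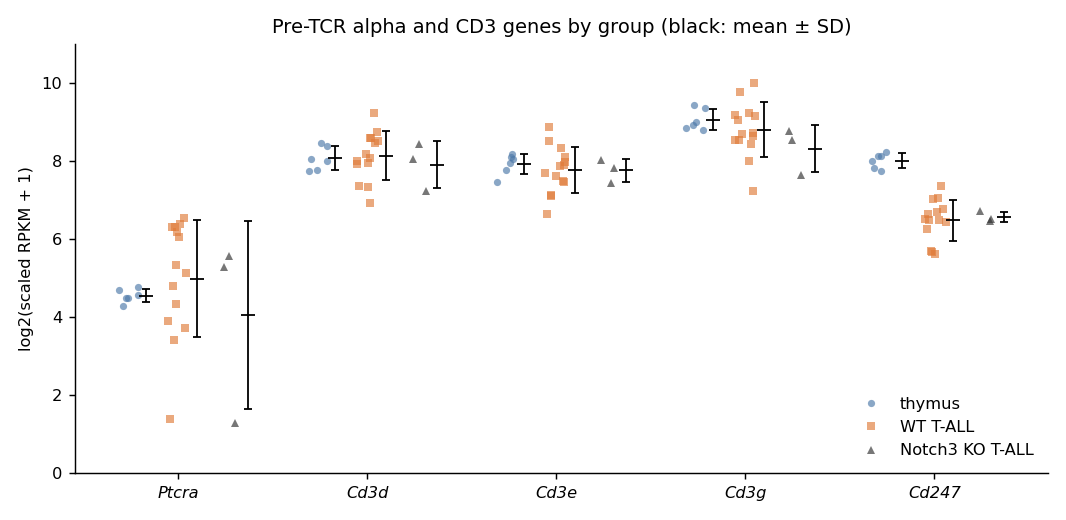
Levels of the 5 genes in every sample, in log2(scaled RPKM + 1) on the vertical axis, for thymus (blue circles, n = 6), WT T-ALL (orange squares, n = 14) and Notch3 KO T-ALL (dark triangles, n = 3); black marks are the mean ± SD. All tumors lie below all thymus samples for Cd247, and Ptcra spreads from 1.27 to 6.53 among tumors while thymus stays between 4.28 and 4.78.

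In thymus, where RPKM values allow levels to be set side by side per length, Cd3g was the highest of the 5 genes (542 ± 106 scaled RPKM, SD, n = 6). Cd3d (273 ± 59.1), Cd247 (258 ± 33.0) and Cd3e (245 ± 42.4) followed and lay within 1 SD of each other. Ptcra was the lowest at 22.5 ± 2.8. Among WT T-ALL the order was Cd3g (494 ± 234), Cd3d (303 ± 127), Cd3e (233 ± 98.2), Cd247 (93.7 ± 33.1) and Ptcra (44.5 ± 31.8, n = 14). Cd247 thus moved from the middle group of 3 to a level of its own, below Cd3e and above Ptcra, while its range among WT T-ALL still met those of Cd3e and Ptcra.

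Ptcra encodes the chain that is specific to the pre-TCR. In log2 values, thymus samples 1 to 6 stood at 4.48, 4.57, 4.69, 4.78, 4.28 and 4.48. Among WT T-ALL, the highest values were 6.53 in tumor 14, 6.38 in tumor 5, 6.30 in tumors 48 and 128, 6.19 in tumor 111 and 6.04 in tumor 36. Tumors 4, 3, 202 and 126 followed with 5.34, 5.13, 4.79 and 4.33. The lowest values were 3.90 in tumor 7, 3.72 in tumor 108, 3.40 in tumor 110 and 1.37 in tumor 120. So 9 of the 14 WT T-ALL lay above every thymus sample, 4 lay below every thymus sample, and only tumor 126 lay within the thymus range. Notch3 KO T-ALL 1, 2 and 3 stood at 1.27, 5.29 and 5.57, which put 1 below the thymus range and 2 above it.

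Mean Ptcra was 4.54 ± 0.17 in thymus, 4.98 ± 1.50 among WT T-ALL and 4.04 ± 2.41 among Notch3 KO T-ALL. Its difference from thymus was 0.44 in WT T-ALL (SE 0.65, 95% interval -0.90 to 1.78, limma adjusted p = 0.59) and -0.50 in Notch3 KO T-ALL (SE 0.94, 95% interval -2.45 to 1.44, limma adjusted p = 0.698). Both intervals hold a rise of more than 1 and the second also a fall of more than 1, so neither comparison shows that the levels are alike. Without Notch3 KO T-ALL 1 the second difference became 0.88, with no call. Relative to the mean of the T cell markers, a scaling described with Cd247, Ptcra was called higher in WT T-ALL (1.40, limma adjusted p = 0.0428), where the median of all genes was 1.04. The SD of Ptcra among WT T-ALL was 8.65 times that in thymus, and 6.5 times without WT T-ALL 120 (SD 1.13). Of 8321 genes with adequate levels, 155 (1.86%) had a larger SD among WT T-ALL, and the median SD was 0.39 there and 0.24 in thymus.

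Across the 14 WT T-ALL, Ptcra was high where Rag1 was high. Rag1 encodes the recombinase subunit that cuts at the antigen receptor loci and is active in the same thymocyte stages as Ptcra. Pearson's r of the log2 values was 0.86 (permutation p = 0.00019, adjusted p = 0.0021 over 20 relations) and Spearman's rho 0.88 (permutation p = 0.0001, adjusted p = 0.002). Without tumors 110 and 120, the 2 farthest from the median of Ptcra, r was 0.72 (permutation p = 0.00757), which no longer passed after adjustment over the 20 relations (adjusted p = 0.0757). Rag1 stood at 3.60 in tumor 110 and 3.64 in tumor 120, and between 4.87 and 7.84 in the other 12. In Notch3 KO T-ALL 1, which had the lowest Ptcra, Rag1 was 3.81. Notch3 KO T-ALL 3 went against the pattern, with Rag1 at 4.72 beside Ptcra at 5.57. Thymus did too, since its 6 samples held more Rag1 than any tumor (9.75 to 10.70) at a middle level of Ptcra.

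**Figure D2:**
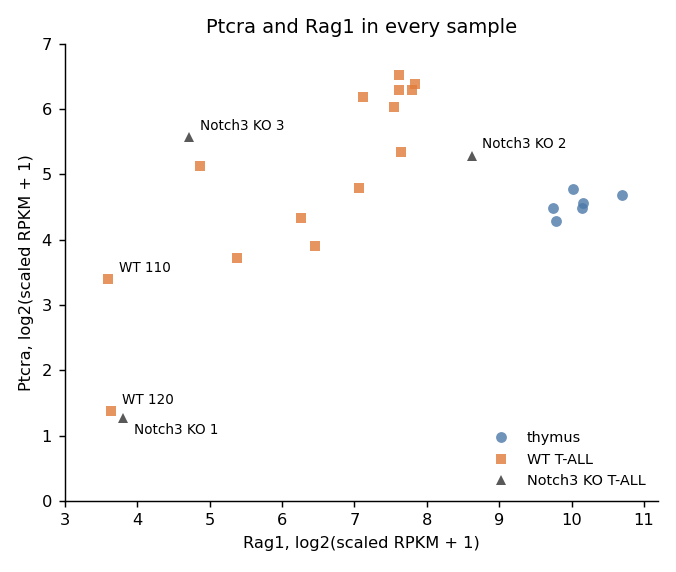
Ptcra (vertical axis) against Rag1 (horizontal axis) in every sample, both in log2(scaled RPKM + 1), for thymus (blue circles), WT T-ALL (orange squares) and Notch3 KO T-ALL (dark triangles). Among WT T-ALL the points rise together (Pearson's r = 0.86), WT 120 and Notch3 KO 1 sit at the lower left, and thymus stands apart at the right.

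Among 8084 genes whose scaled RPKM averaged 5 or more over WT T-ALL, the 5 whose pattern was most like that of Ptcra over the 14 tumors were Rag2 (r = 0.86), Rag1 (r = 0.86), Med27 (r = 0.85), Zfp358 (r = 0.83) and Vmac (r = 0.81). Rag2, the partner of Rag1, stood at 1.00 in WT T-ALL 120 and 1.08 in Notch3 KO T-ALL 1. The relation of Ptcra with Notch1, the Notch receptor that drives Ptcra in thymocytes, had an r of 0.49 (rho 0.41, permutation p = 0.0769 and 0.146, adjusted p = 0.22 and 0.244). With the Notch target genes Hes1 and Dtx1, r was 0.44 and 0.46 (rho 0.48 and 0.51, permutation adjusted p for r of 0.263 and 0.248). With Tcf12, which encodes the E protein HEB, r was 0.62 (rho 0.66, permutation p = 0.0156 and 0.0119, adjusted p = 0.104 and 0.0595). None of these 4 relations passed after adjustment, and without tumors 110 and 120 their r was 0.28, 0.04, 0.45 and 0.69.

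Cd3d, Cd3e and Cd3g encode the delta, epsilon and gamma chains that carry every TCR and pre-TCR to the membrane. Cd3g stood at 9.36, 8.85, 9.43, 8.79, 8.93 and 9.01 in thymus 1 to 6, and between 7.24 (tumor 7) and 10.01 (tumor 14) in WT T-ALL with a median of 8.71. In Notch3 KO T-ALL 1, 2 and 3 it stood at 8.54, 7.63 and 8.78. Cd3d lay between 7.75 and 8.47 in thymus (median 8.02), between 6.91 and 9.24 among WT T-ALL (median 8.12) and between 7.24 and 8.44 among Notch3 KO T-ALL. Cd3e ran from 7.47 to 8.19 (median 8.0), from 6.64 to 8.87 (median 7.78) and from 7.44 to 8.02 in the same order. The tumor values spread on both sides of thymus for all 3 genes in WT T-ALL, where 2, 5 and 3 tumors lay above every thymus sample and 8, 3 and 4 below for Cd3g, Cd3d and Cd3e.

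The differences of WT T-ALL from thymus were 0.06 for Cd3d (SE 0.26, 95% interval -0.47 to 0.60, limma adjusted p = 0.858), -0.16 for Cd3e (SE 0.24, 95% interval -0.65 to 0.33, limma adjusted p = 0.587) and -0.26 for Cd3g (SE 0.28, 95% interval -0.84 to 0.32, limma adjusted p = 0.451). In Notch3 KO T-ALL they were -0.16 for Cd3d, -0.16 for Cd3e and -0.75 for Cd3g (SE 0.41, 95% interval -1.59 to 0.09, limma adjusted p = 0.153). All 3 Notch3 KO T-ALL lay below all thymus samples for Cd3g, by a margin of 8.78 against 8.79 at the closest, and 18.4% of all genes tested showed that order. The call for Cd3g in this comparison turned on the test, the scaling and the model. The two-sided exact permutation test gave p = 0.0119, the smallest that 3 against 6 samples allow, with an adjusted p of 0.031, and limma on thymus and Notch3 KO T-ALL alone gave an adjusted p of 0.0382. In the fit of all groups limma called it lower with quantile normalization (-1.30, adjusted p = 0.00256), with the GC content and transcript length correction (-0.90, adjusted p = 0.0389, with Cd3d called too at -0.76, adjusted p = 0.0334) and with the replicate number as a block (-0.89, adjusted p = 0.0234). Leaving out 1 sample moved -0.75 between -0.98 and -0.41 with no call. In WT T-ALL, quantile normalization also gave Cd3g a call (-0.76, limma adjusted p = 0.00604).

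Cd3d and Cd3g moved together among WT T-ALL. Their log2 values had an r of 0.84 over the 14 tumors (permutation p = 0.00021, adjusted p = 0.0021) and a rho of 0.84 (permutation p = 0.00048, adjusted p = 0.0048). Without tumors 7 and 14, r was 0.63 (permutation p = 0.0276, adjusted p = 0.126), so the call over 20 relations rests on those 2 tumors. Tumor 7 had the lowest and tumor 14 the highest value of both genes. Both genes also moved with the level of the ribosomal protein genes, described next, and the part of that level in their relation was not tested. The relation of Cd3e with Cd3g (r = 0.54, rho = 0.57, permutation adjusted p = 0.155 and 0.139) and with Cd3d (r = 0.30, rho = 0.38, permutation adjusted p = 0.401 and 0.276) did not pass, although the 3 genes are neighbours. Ptcra had an r of 0.56 with Cd3g (permutation adjusted p = 0.152) and a rho of 0.70 (permutation adjusted p = 0.049). The 5 genes most like the mean of Cd3d, Cd3e and Cd3g over these tumors were Uaca (r = 0.95), Tmem42 (r = 0.93), Lyrm4 (r = 0.90), Cops6 (r = 0.88) and Apopt1 (r = 0.88), among 8084 genes.

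The ribosomal protein level is the mean log2 value of 73 genes, and its relation to each of the 5 genes and to the difference of Cd3d and Cd3e was computed across WT T-ALL after the data were seen, as 6 relations. With Cd3d, r was 0.86 (permutation p = 0.0001, adjusted p = 0.0006) and rho 0.82 (permutation p = 0.00051, adjusted p = 0.00306). With Cd3g, r was 0.71 (permutation p = 0.00506, adjusted p = 0.0127) and rho 0.67 (permutation p = 0.0103, adjusted p = 0.0309). Without tumors 5 and 14, the 2 farthest from the median of the ribosomal protein level, r was 0.79 and 0.88 (permutation adjusted p = 0.00855 and 0.00306). With Cd3e, r was 0.02 (rho 0.22, permutation adjusted p = 0.951 and 0.533) but 0.66 without those tumors (permutation adjusted p = 0.0392). Ptcra (r = 0.39, rho = 0.38) and Cd247 (r = 0.06, rho = 0.05) did not pass (permutation adjusted p of 0.247 and 0.951 for r and of 0.279 and 0.854 for rho). The difference of Cd3d and Cd3e had an r of 0.73 (permutation adjusted p = 0.0127) but a rho of 0.47 (permutation adjusted p = 0.188), and r fell to 0.21 without tumors 5 and 14 (permutation adjusted p = 0.61), so that relation rests on those 2 tumors.

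Thymus samples 1 and 3 had the highest ribosomal protein level of the controls (10.55 and 10.62, against 9.62 to 9.82 in the other 4), and in them Cd3d exceeded Cd3e by 0.63 and 1.00. In the other 4 the difference ran from -0.44 to 0.11. In WT T-ALL 14, with the highest ribosomal protein level of all samples (11.97), the difference was 1.78, and in WT T-ALL 5, with the lowest of the tumors (10.11), it was -1.50. WT T-ALL 7, the next lowest at 10.25, went the other way with 0.27. The ribosomal protein level lay between 10.11 and 11.97 among WT T-ALL and between 10.33 and 11.40 among Notch3 KO T-ALL, so it was higher in most tumors than in thymus. With that level as a covariate, an alternative chosen after the data were seen, Cd3d was lower than in thymus by limma in WT T-ALL (-0.82, adjusted p = 0.0015) and in Notch3 KO T-ALL (-1.09, adjusted p = 0.00164), and so was Cd3g (-1.08, adjusted p = 0.00271, and -1.60, adjusted p = 0.00118). The mean levels of these 2 genes relative to thymus therefore depend on that adjustment, and the part of the ribosomal protein level in them was not tested.

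**Figure D3:**
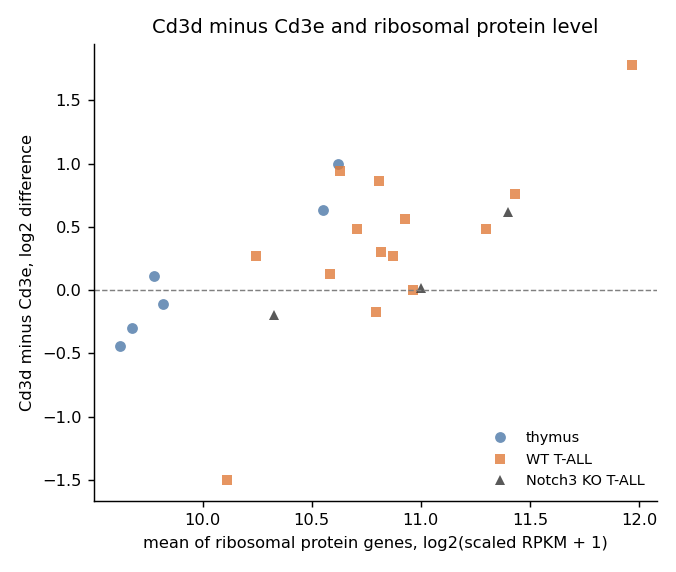
The difference of Cd3d and Cd3e in log2 (vertical axis, dashed line at 0) against the mean log2(scaled RPKM + 1) of 73 ribosomal protein genes (horizontal axis) in every sample, for thymus (blue circles), WT T-ALL (orange squares) and Notch3 KO T-ALL (dark triangles). The difference is 1.00 at its highest in thymus, in sample 3, and runs from -1.50 in WT T-ALL 5 to 1.78 in WT T-ALL 14.

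Cd247 encodes the zeta chain, whose phosphorylated motifs recruit the kinase Zap70. Its log2 values were 8.14, 8.0, 8.13, 7.75, 7.83 and 8.22 in thymus 1 to 6. They were, in WT T-ALL 3, 4, 5 and 7, 5.66, 6.49, 7.04 and 7.02, and in tumors 14, 36 and 48 they were 6.77, 6.70 and 7.37. Tumors 108, 110, 111 and 120 stood at 5.70, 5.62, 6.26 and 6.43, and tumors 126, 128 and 202 at 6.63, 6.49 and 6.51. Notch3 KO T-ALL 1, 2 and 3 stood at 6.71, 6.50 and 6.46. All 14 WT T-ALL and all 3 Notch3 KO T-ALL lay below all 6 thymus samples, an order that 6.64% and 18.4% of the genes tested showed.

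The difference from thymus was -1.53 in WT T-ALL (SE 0.21, 95% interval -1.96 to -1.10, limma adjusted p = 2.7e-06), a 2.89-fold lower level. It was -1.45 in Notch3 KO T-ALL (SE 0.30, 95% interval -2.07 to -0.84, limma adjusted p = 0.00064), a 2.74-fold lower level. The two-sided exact permutation test gave p = 2.58e-05 and 0.0119 for the same differences, adjusted to 0.000226 and 0.031 over all genes. The first and second of these p-values are the smallest that 14 against 6 and 3 against 6 samples allow.

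T cell markers fell beside Cd247. Of the 7 markers (Cd2, Cd5, Lck, Thy1, Cd28, Bcl11b and Tcf7), 6 were called lower in WT T-ALL and 5 in Notch3 KO T-ALL, with median differences of -0.90 and -0.81, where 22.3% and 16.3% of all genes were called lower and the median of all genes was 0.08 in both. Measured relative to the mean of these markers, Cd247 was still lower in WT T-ALL (-0.57, limma adjusted p = 0.004) but lost the call in Notch3 KO T-ALL (-0.41, limma adjusted p = 0.138). That scaling put the median difference of all genes at 1.04 and 1.12, and on it Cd3d, Cd3e and Cd3g stood at 1.02, 0.80 and 0.70 in WT T-ALL, each called higher (limma adjusted p = 0.00103, 0.00138 and 0.0136). They stood at 0.88, 0.88 and 0.29 in Notch3 KO T-ALL, with calls for Cd3d and Cd3e (limma adjusted p = 0.0418 and 0.0138). All 6 values lay below the median of all genes on that scaling. Adding the erythroid score as a covariate put the difference of Cd247 at -0.92 (limma adjusted p = 0.257) and -0.56 (limma adjusted p = 0.754). That score, the mean log2 value of the 4 erythroid markers, ran from 0.06 to 0.48 in thymus and from 2.75 to 8.21 in tumors, so it splits the samples as the groups do and the contributions of erythroid cells and leukemia cannot be told apart in these comparisons. Within WT T-ALL the score and Cd247 had an r of -0.30 (rho -0.17, permutation adjusted p = 0.401 and 0.617), and without tumors 48 and 110 an r of -0.62 (permutation p = 0.0315, adjusted p = 0.126).

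Cd247 was also set against the other CD3 genes of the same sample, of which Cd3d and Cd3g themselves moved with the ribosomal protein level among WT T-ALL. Cd247 minus the mean of Cd3d, Cd3e and Cd3g ran from -0.48 to -0.10 in thymus. In 13 of 14 WT T-ALL it was lower than in any thymus sample, from -3.07 in tumor 3 to -1.11 in tumor 4. Tumor 7, in which Cd3d, Cd3e and Cd3g were the lowest of all tumors, was the exception at 0.09. In Notch3 KO T-ALL 1, 2 and 3 it was -1.49, -0.93 and -1.89. Among WT T-ALL, Cd247 had an r between -0.01 and 0.40 with the other 4 genes (permutation adjusted p from 0.294 to 0.971).

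**Figure D4:**
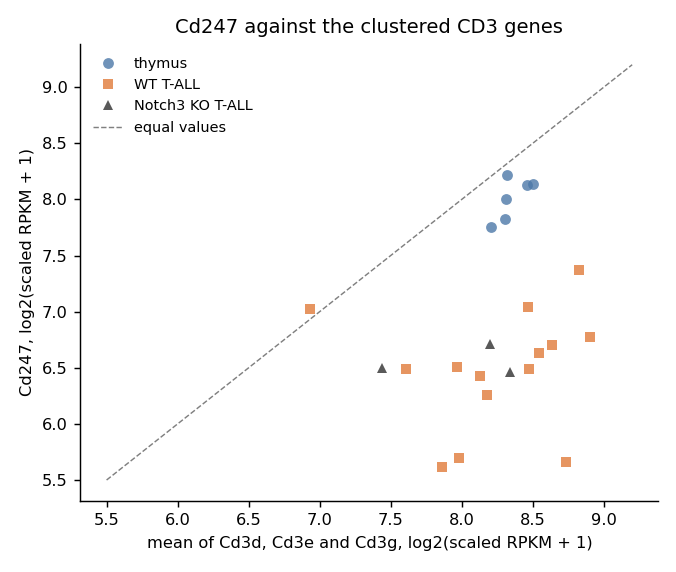
Cd247 (vertical axis) against the mean of Cd3d, Cd3e and Cd3g (horizontal axis) in every sample, both in log2(scaled RPKM + 1), with a dashed line where they are equal, for thymus (blue circles), WT T-ALL (orange squares) and Notch3 KO T-ALL (dark triangles). Thymus samples lie just under the line, and all tumors but WT T-ALL 7 (Cd247 at 7.02) lie well below it.

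Set side by side, the tumors fell into different combinations of these genes. WT T-ALL 14 had the highest Ptcra, Cd3d and Cd3g of the 17 tumors, with Cd3e at 7.46, about level with the lowest thymus sample (7.47). WT T-ALL 5 had the highest Cd3e (8.87) and the second highest Ptcra, with Cd3d at 7.37. WT T-ALL 48 had the highest Cd247 of all tumors (7.37), still below the lowest thymus sample (7.75). WT T-ALL 120 and Notch3 KO T-ALL 1 had the lowest Ptcra, more than 3 below the thymus mean, with Cd3d at 7.99 and 8.04 and Cd3e at 7.86 and 8.02, all within the range of thymus, and Cd3g at 8.54 in both, below every thymus sample. In these 2 tumors Ptcra minus the mean of Cd3d, Cd3e and Cd3g was -6.76 and -6.93, against -4.02 to -3.43 in thymus. WT T-ALL 3 and 110 had Cd247 at 5.66 and 5.62, the 2 lowest values, beside Cd3e of 8.50 and 7.10.

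**Figure D5:**
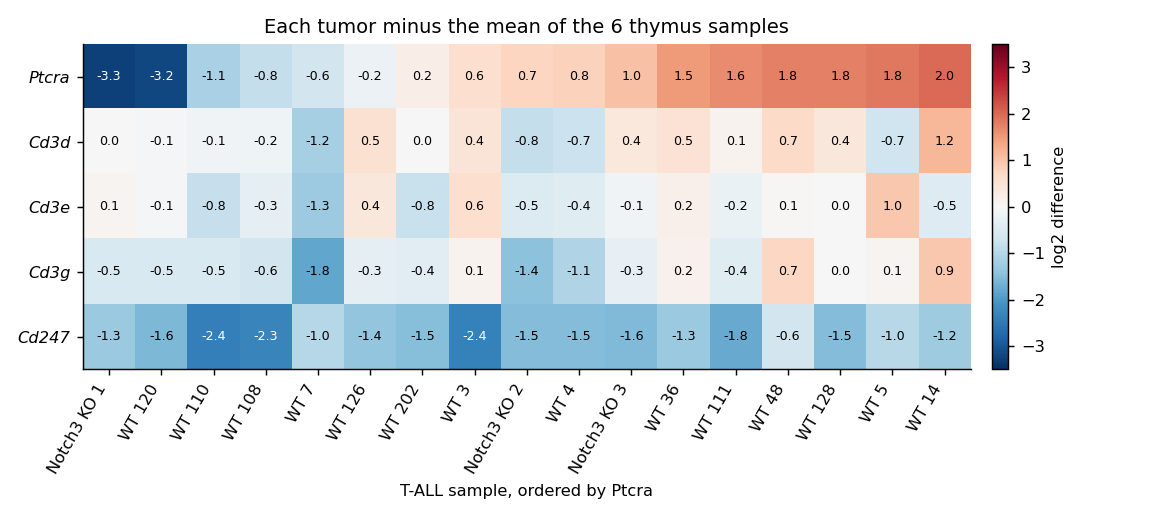
Each column is 1 T-ALL sample, ordered by Ptcra, and each row 1 gene; the color and the number give the log2 value minus the mean of the 6 thymus samples. Ptcra runs from far below to far above thymus from left to right, Cd247 is below thymus in all 17 tumors, and Cd3d, Cd3e and Cd3g show both signs.

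Between Notch3 KO T-ALL and WT T-ALL, none of the 5 genes was called by limma, where 0.617% of the 11677 genes tested were called and 994 had an unadjusted p under 0.05. Their unadjusted p-values lay between 0.244 and 0.994, 0 of 5 under 0.05, and the exact permutation test called none either. The differences were -0.94 for Ptcra (SE 0.96, 95% interval -2.96 to 1.08, limma adjusted p = 0.963), -0.22 for Cd3d (95% interval -1.0 to 0.55) and -0.49 for Cd3g (95% interval -1.33 to 0.36, limma adjusted p = 0.912). For Cd3e the 95% interval ran from -0.71 to 0.70, and for Cd247 the difference was 0.08 (95% interval -0.55 to 0.70). The 3 Notch3 KO T-ALL lay inside the range of the 14 WT T-ALL for Cd3d, Cd3e, Cd3g and Cd247, and for Ptcra 1 of the 3 lay below it. Leaving out Notch3 KO T-ALL 1 turned the difference of Ptcra to 0.45, with no call. With 3 samples in a group, the interval of Ptcra reaches -2.96, a larger change than that of Cd247 against thymus. That of Cd3g reaches -1.33, so the comparison does not show that the groups are alike.

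The other genes of the pathway were counted from lists chosen by function. Of the antigen receptor chains and their partner Trat1, the constant genes of the TCR chains were not analysed here, and Trat1, an adaptor that binds the zeta chain, was lower in WT T-ALL by limma (difference -1.54, adjusted p = 0.00229) and not called in Notch3 KO T-ALL (-1.23). The call in WT T-ALL was lost relative to the T cell markers (-0.58, limma adjusted p = 0.119), with the erythroid score (-1.87, limma adjusted p = 0.239) and with the replicate number as a block (-1.82, limma adjusted p = 0.0946). In the proximal signaling list of 22 genes, 1 was called higher and 15 lower in WT T-ALL, and 1 higher and 14 lower in Notch3 KO T-ALL, against a background of 22.3% and 16.3% called lower. The median difference was -0.98 and -0.96, where that of all genes was 0.08 in both. Relative to the mean of the T cell markers, 5 were called higher and 6 lower in WT T-ALL, and 4 higher and 6 lower in Notch3 KO T-ALL. The list medians there were -0.02 and 0.09, with all genes at 1.04 and 1.12, and the share of all genes called is not given. Cd2, Cd5, Lck and Cd28 belong both to this list and to those markers, so the list is partly scaled to itself. With the erythroid score in the fit, 2 and 0 of the 22 were called lower. The Tec-family kinase Txk was called lower in WT T-ALL, at a log2 difference of -2.13, and Cd5, a brake on TCR signaling, fell by 1.86. Lck, which phosphorylates the CD3 motifs, lay below thymus in every tumor (9.54 ± 0.18 in thymus, 8.64 ± 0.38 in WT T-ALL and 8.72 ± 0.31 in Notch3 KO T-ALL). Of all genes tested, 6.64% in WT T-ALL and 18.4% in Notch3 KO T-ALL showed that order. Zap70 overlapped thymus in both tumor groups (6.24 ± 0.1, 6.04 ± 0.26 and 5.9 ± 0.28 in the same order of groups). Its values lay below every thymus sample in 10 of 14 WT T-ALL and 2 of 3 Notch3 KO T-ALL.

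Fcer1g, which encodes the Fc receptor gamma chain, a relative of the zeta chain that can take its place, was the 1 signaling gene called higher. It stood between 1.76 and 2.73 in thymus, between 1.81 and 7.10 in WT T-ALL (median 3.75) and between 3.77 and 4.72 in Notch3 KO T-ALL. The differences were 1.40 (limma adjusted p = 0.0331) and 2.07 (limma adjusted p = 0.04), and both calls were lost when any 1 of thymus 3, 4, 5 or 6 was left out (1.14 to 1.54 and 1.87 to 2.34 over all samples left out). The second was also lost without Notch3 KO T-ALL 1 or 3. With the erythroid score in the fit both calls were lost and the values turned to -0.16 and -0.23 (limma adjusted p = 0.955 and 0.969). Both were also lost by limma with the GC content and transcript length correction (0.82, adjusted p = 0.17, and 1.29, adjusted p = 0.162), with the ribosomal protein level (1.21, adjusted p = 0.197, and 1.87, adjusted p = 0.133) and with no filter on low values (adjusted p = 0.0536 and 0.0593), and the first with the replicate block (0.49, adjusted p = 0.28). Myeloid cells use Fcer1g, and 7 of 8 macrophage and 8 of 8 neutrophil markers were called higher in WT T-ALL, and 8 of 8 and 3 of 8 in Notch3 KO T-ALL, where 29.3% and 21.2% of all genes were called higher in the 2 comparisons. Their part in the change of Fcer1g was not tested. Syk, the kinase related to Zap70 that acts in pre-TCR signaling, stood at 3.35 ± 0.10 in thymus, 2.67 ± 1.07 in WT T-ALL and 2.74 ± 0.70 in Notch3 KO T-ALL and was not called.

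Of 14 negative regulators and turnover genes, 9 were lower and 0 higher in WT T-ALL by limma, at a median difference of -0.78, and 7 were lower and 1 higher in Notch3 KO T-ALL at -0.82, where 22.3% and 16.3% of all genes were called lower. These counts depend on the scaling. Relative to the T cell markers 6 were called higher and 1 lower in WT T-ALL, and 5 higher and 1 lower in Notch3 KO T-ALL. The list medians there were 0.18 and 0.22, below the 1.04 and 1.12 of all genes. The share of all genes called on that scaling is not given, so these counts are no rise of the list. With the erythroid score in the fit 1 and 0 were called lower. Sit1, an adaptor that dampens TCR signals, differed by -2.10 in WT T-ALL and by -1.71 in Notch3 KO T-ALL. Cbl, a ubiquitin ligase that sends the receptor for degradation, differed from thymus by -1.39 and -1.82, with a call in both that was lost relative to the T cell markers (-0.43, limma adjusted p = 0.173, and -0.77, limma adjusted p = 0.101).

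Among 18 regulators of Ptcra and the CD3 genes, 3 were higher and 6 lower in WT T-ALL, and 2 higher and 5 lower in Notch3 KO T-ALL, with medians of 0.00 and -0.34. These 9 and 7 calls of 18 are close to the share of all genes called in either direction, 51.6% and 37.5%, so the counts are no result about the list. Relative to the T cell markers they became 11 higher and 1 lower, and 8 higher and 1 lower. The list medians there were 0.96 and 0.7, below the 1.04 and 1.12 of all genes. The share of all genes called on that scaling is not given, so these counts are no result about the list either. Bcl11b and Tcf7 belong both to the list and to those markers. Notch1 stood 1.87 and 1.91 above thymus (limma adjusted p = 1.58e-06 and 0.000229) and Hes1 2.98 and 2.01 above. Hes1 in Notch3 KO T-ALL 2 was 2.58, within the thymus range of 2.02 to 3.0, and in Notch3 KO T-ALL 1 and 3 it was 5.26 and 5.5. Satb1, a chromatin organizer of thymocytes, was called lower at -2.38 and -1.86, and so were Bcl11b, a factor of T-lineage commitment, at -1.31 and -1.54, and Myb at -1.0 and -1.35. Relative to the T cell markers the calls of Bcl11b, itself one of those markers, and of Myb were lost (Bcl11b -0.35 and -0.50, limma adjusted p = 0.102 and 0.123, and Myb -0.04 and -0.31, limma adjusted p = 0.845 and 0.297). With the erythroid score in the fit none of the 18 was called lower in WT T-ALL (Satb1 -1.44, limma adjusted p = 0.0696) and none was called in Notch3 KO T-ALL, where Notch1 stood at 2.46 (limma adjusted p = 0.184) and Hes1 at 3.72 (limma adjusted p = 0.0896). The E protein genes Tcf12 (6.90 ± 0.14 in thymus) and Tcf3 differed from thymus by -0.13 and 0.00 in WT T-ALL and by -0.53 and -0.15 in Notch3 KO T-ALL, with no call. Tcf12 gained a call by limma in Notch3 KO T-ALL with quantile normalization (-0.80, adjusted p = 0.036) and with only the groups compared (-0.53, adjusted p = 0.049). Relative to the T cell markers, calls by limma were gained by Tcf12 in WT T-ALL (0.83, adjusted p = 0.000373) and by Tcf3 in both (0.96, adjusted p = 3.05e-05, and 0.89, adjusted p = 0.00394), each below the median of all genes on that scaling.

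Of 13 genes of receptor gene recombination and thymocyte stage, 9 were lower and 1 higher in WT T-ALL, and 10 lower and 1 higher in Notch3 KO T-ALL, at median differences of -2.67 and -2.97, where 22.3% and 16.3% of all genes were called lower and the median of all genes was 0.08 in both. Relative to the T cell markers, 9 and 8 were called lower and 2 higher in each group. The list medians there were -1.71 and -1.93, with all genes at 1.04 and 1.12, and the share of all genes called is not given. With the erythroid score in the fit 0 were called lower in either group, at medians of -2.47 and -2.55. Differences from thymus were -3.63 and -4.37 for Rag1, -2.48 and -3.53 for Rag2, and -1.66 and -1.91 for Dntt, which adds bases at receptor gene joints, each with a call. The call of Rag2 in WT T-ALL was lost with the replicate block (-1.91, limma adjusted p = 0.154). Ccr9, a homing receptor of thymocytes, differed by -4.80 and Cd4 by -4.30 in WT T-ALL, and Cd69, a marker of receptor signaling, by -3.56 in Notch3 KO T-ALL. Cd24a, a surface glycoprotein of immature thymocytes that red cell precursors also carry, was the 1 gene called higher, by 1.03 and 1.85, beside the erythroid markers whose sums are given above. With the erythroid score in the fit it stood at -0.55 and -0.48 with no call (limma adjusted p = 0.389 and 0.723), and with the ribosomal protein level it lost the call in WT T-ALL (0.58, limma adjusted p = 0.0575). Between the tumor groups 0 of the 68 genes of the 5 lists were called by limma, 5 had an unadjusted p under 0.05, and no alternative fit called any. None of the 17 T-ALL reached the thymus range of Rag1.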

How the data were processed

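RNA sequencing libraries of 23 samples (thymus n = 6, WT T-ALL n = 14, Notch3 KO T-ALL n = 3) were made with a stranded mRNA kit from total RNA. The authors aligned reads with OSA to mm10 transcripts, quantified genes in ArrayStudio, and deposited 1 table of 24475 genes as log2 values. The deposited log2 scale was read from the values. Each column had a minimum of 0 and a 75th percentile of 3.458 to 3.459, the value of log2(RPKM + 1) with RPKM scaled to 10 there. Beyond the approximate number of reads per sample that the authors give, read counts, and with them the exact depth and precision of each library, are unknown.

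Genes that reached a scaled RPKM of 1 in 3 or more samples were tested with limma 3.58.1 in R 4.3.3 (trend and robust), with Benjamini-Hochberg adjustment over all genes tested. The fit behind both thymus comparisons held all 3 groups (11919 genes), and the comparison of tumor groups used tumors alone (11677 genes). Single genes were also tested by a two-sided exact permutation test of the difference in means. The 20 correlations across WT T-ALL used 100000 permutations in Python 3.11.15 with scipy 1.17.1. P-values set a difference or a correlation against the variation between these samples. Limma used a variance per gene shared by the groups of a fit, although some SDs differed widely. That of Ptcra was 0.17 in thymus, 1.5 in WT T-ALL and 2.41 in Notch3 KO T-ALL. On simulated data the 3 fits recovered 76%, 48% and 43% of simulated log2 changes of 1 and 100%, 83% and 89% of changes of 2.

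The 5 genes, the lists and the tests were chosen with earlier results of these data known. From each list at most 3 genes with the largest rise and 3 with the largest fall among called genes were named in each comparison, and Fcer1g, Syk, Rag1, Rag2, Dntt, Notch1, Tcf12 and Tcf3 always. The values of Lck, Zap70 and Il2ra were given outside this rule. Single genes of the lists that this rule would name may not be reported here. Epb42 of the erythroid markers and 8 TCR constant genes (Trac, Trbc1, Trbc2, Trdc and Trgc1 to Trgc4) were not analysed here. Alternatives were the offset, the filter, quantile normalization, limma settings, covariates, scaling to T cell markers and leaving out each sample. Corrections for GC content with transcript length, and for the ribosomal protein level, were chosen after seeing the data.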

Additional observations from a re-analysis of the deposited data

How the results depend on the processing

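The lower Cd247 kept its direction in both tumor groups under all alternatives tried, with log2 differences of -1.87 to -0.57 among WT T-ALL and -1.83 to -0.41 among Notch3 KO T-ALL. Its call was lost only where the text above says so, and was kept whichever sample was left out (-1.60 to -1.46 and -1.53 to -1.40). Where values and calls changed, the cause was not tested. The 5 genes held 1 call in each comparison with thymus as reported. In WT T-ALL this became 2 calls with quantile normalization, 0 with the erythroid score as a covariate, 5 relative to the T cell markers (4 higher and 1 lower) and 3 with the ribosomal protein level as a covariate. In Notch3 KO T-ALL it became 2 calls with quantile normalization, 0 with the erythroid score, 2 relative to the T cell markers, 3 with the GC content and transcript length correction, 3 with the ribosomal protein level, 2 with only the groups compared and 2 with the exact permutation test. The comparison of the tumor groups stayed at 0 calls. Shares of all genes called under these settings are not given here, so the changed counts are no result about the 5 genes. Relative to the T cell markers, the median difference of all genes was itself 1.04 in WT T-ALL and 1.12 in Notch3 KO T-ALL. Of the 20 correlations, 2 passed as reported and 0 passed without the 2 samples farthest from the median, while Spearman's rho passed 3.

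Replicate numbers do not pair the samples, since same-numbered samples deviated together with correlations of -0.24 to 0.15 only. With the number as a replicate block, WT T-ALL kept 1 call, with Cd3d at -0.40 and Cd3e at 0.43 in the opposite direction, and Notch3 KO T-ALL had 2 calls. The comparison of the tumor groups shares fewer than 2 numbers, and no paired analysis was possible there.

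Directions that turned are given by setting. With the erythroid score, WT T-ALL against thymus gave Ptcra -0.20, Cd3d -1.17, Cd3e 0.04, Cd24a -0.55 and Fcer1g -0.16, and Notch3 KO T-ALL gave Cd3e 0.13, Cd24a -0.48, Fcer1g -0.23, Syk 0.13 and Tcf3 0.46. Between the tumor groups it gave Cd3e 0.07, Fcer1g -0.07 and Tcf3 0.03. Relative to the T cell markers, WT T-ALL gave Cd3e 0.80, Cd3g 0.70, Syk 0.28 and Tcf12 0.83, Notch3 KO T-ALL gave Ptcra 0.54, Cd3d 0.88, Cd3e 0.88, Cd3g 0.29, Syk 0.43, Tcf12 0.51 and Tcf3 0.89, and the tumor groups Cd3e 0.08. Quantile normalization gave Cd3d -0.31 and Tcf3 -0.12 in WT T-ALL. The ribosomal protein level gave Ptcra -0.22 and Cd3d -0.82 in WT T-ALL and Tcf3 0.01 in Notch3 KO T-ALL. The GC content and transcript length correction gave Cd3d -0.40 in WT T-ALL and, between the tumor groups, Notch1 -0.07 and Syk -0.01. Under it the r of Cd3d and Cd247 was 0.00025. On the uncorrected values the rho of these 2 genes was 0.21 and their r without tumors 7 and 14 was 0.10, and the r of Cd3g with the erythroid score turned from 0.40 to -0.01 without the same tumors.

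Leaving out 1 sample changed the sign of small differences. In WT T-ALL against thymus, Cd3d ran from -0.02 to 0.15 (turned without thymus 4, thymus 6 or WT T-ALL 14) and Tcf3 from -0.06 to 0.06. In Notch3 KO T-ALL against thymus, Ptcra ran from -1.27 to 0.88 (without tumor 1) and Cd3d from -0.43 to 0.17 (without tumor 2). Between the tumor groups, Ptcra ran from -1.70 to 0.45, Cd3d from -0.49 to 0.11, Cd3e from -0.13 to 0.16, Dntt from -0.51 to 0.06, Notch1 from -0.15 to 0.19, Rag1 from -2.19 to 0.21 and Syk from -0.24 to 0.45. Rag2 lost its call in Notch3 KO T-ALL without tumor 1 or 3 (-4.81 to -2.56), and Syk gained one in WT T-ALL without tumor 110 (-0.87 to -0.56). The lack of read counts limits statements on low genes such as Ptcra in WT T-ALL 120 and Notch3 KO T-ALL 1.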

Other observations

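Il2ra, the CD25 gene that marks thymocytes on the way to beta-selection, was picked out after its values were seen. It stood at 0.71 in WT T-ALL 120 and 0.32 in Notch3 KO T-ALL 1, the 2 tumors with the lowest Ptcra, and these were the 2 lowest Il2ra values of all 23 samples. Notch3 KO T-ALL 2 had the next lowest Il2ra (1.23) with Ptcra at 5.29, above every thymus sample, so low Il2ra did not always come with low Ptcra. Thymus lay between 3.78 and 5.57. WT T-ALL 36 and 48, both with high Ptcra, reached 8.23 and 7.75, while WT T-ALL 14, with the highest Ptcra, stood at 4.38.

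Marker lists of other cells, counted by limma against thymus, gave 4 of 4 megakaryocyte markers higher in both tumor groups (median log2 differences of 2.08 and 4.02) and 4 of 4 tested B cell markers lower (-1.56 and -1.53). The 1 stroma marker tested was higher (3.84 and 2.95), the 1 NK cell marker tested was lower (-0.87 and -1.0), and of 2 thymic epithelium markers tested 1 was lower in each. Of 2 endothelial markers, 1 was higher and 1 lower in WT T-ALL, and 1 was higher in Notch3 KO T-ALL. Of all genes tested, 29.3% were called higher and 22.3% lower in WT T-ALL, and 21.2% and 16.3% in Notch3 KO T-ALL, so the counts over lists of 1 or 2 markers are no result about those cells.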
